A study of Cavia porcellus with 27 samples.

Results

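At 2005 CpGs in the prefrontal cortex of juvenile guinea pigs (Cavia porcellus), methylation was listed by the authors as different between offspring exposed before birth to betamethasone and offspring exposed to saline. These are all rows of the table for postnatal day (PND) 14, out of 6627 listed CpGs in the series, and no row was left out. The other 4622 belong to newborns at PND1. The juvenile groups were 6 offspring of mothers given betamethasone and 7 offspring of mothers given saline, on gestational day 50/51 in either case, with 1 library per animal. The series record speaks of female offspring. It states neither a dose nor the number of injections. The tissue was bulk prefrontal cortex, so a level averages over its neurons, glia and other cells. More cells of a type and more methylation per cell cannot be told apart, and the tissue label could not be checked, because the tables hold no expression of marker genes.

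Methylation of cytosine in CpG dinucleotides is set by DNA methyltransferases and removed through oxidation by TET enzymes. In mammals most CpGs are highly methylated, whereas CpG-dense promoters are usually free of methylation. Betamethasone is a synthetic glucocorticoid that crosses the placenta, is given to women at risk of preterm birth to mature the fetal lung, and binds the glucocorticoid receptor, a transcription factor abundant in brain. Reduced representation bisulfite sequencing (RRBS) reads short CpG-rich fragments after a treatment that converts unmethylated cytosine and leaves methylated cytosine.

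Each row holds, for either treatment, a coverage and how many of those reads were methylated, taken here as sums over its animals. A level below is the share of those reads that were methylated, and a difference is betamethasone minus saline in percentage points. The file's case was read as betamethasone and its control as saline, because the series record calls saline the control; were it the other way round, every sign below would change. Without values per animal, the spread between animals is unknown throughout. Errors and intervals cover counting of reads only, and reads are not independent molecules. Coverage per CpG ran from 10 to 472 reads after saline, with a median of 72, and from 10 to 471 after betamethasone, with a median of 64. Scaffold names and positions are printed as deposited. The sources used here name no genome build, so genes and other features could not be placed.

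The clearest juvenile difference was a gain of methylation on scaffold_0. It held both CpGs that passed Fisher's exact test after Benjamini-Hochberg adjustment over all 2005 CpGs (0.0998% of the table). The test is two-sided, compares the pooled reads of 7 animals with those of 6, and leaves out variation between animals. At 87065059, 37 of 66 reads were methylated after saline (56.1%) and 59 of 65 after betamethasone (90.8%). That is a difference of 34.7 points (95% interval 19.9 to 47.7, adjusted Fisher's exact p = 0.0164). At 87065049, 10 bp before it in the deposited numbering, the counts were 38 of 65 (58.5%) and 59 of 65 (90.8%), a difference of 32.3 points (17.7 to 45.4, adjusted Fisher's exact p = 0.0357). No CpG with a lower level after betamethasone passed. An unadjusted Fisher's exact p under 0.05 stood at 94 CpGs (4.69%), of which 45 were higher (2.24%) and 49 lower (2.44%). The CpGs had been listed from the same reads, so neither count is independent of the listing.

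A region here is a set of listed CpGs on a scaffold that are less than 1000 bp apart. The region around this pair spanned 272 bp, from 87064889 to 87065160, with 14 listed CpGs. Its levels after betamethasone ran from 59.1% to 98.8% and those after saline from 39.1% to 86.6%, and each of the 14 was higher after betamethasone. The 3 CpGs with the largest differences, at 87065033, 87065049 and 87065059, had 65 or 66 reads after saline and 63 to 65 after betamethasone. Their saline levels lay between 56.1% and 60.6% and their betamethasone levels between 87.3% and 90.8%. The other 11 CpGs differed by 2.81 to 19.96 points. The position next to 87065059, 87065058, taken as the other strand of the same CpG, had 99 and 86 reads. There, 75.8% of reads were methylated after saline (Wilson 95% interval 66.5% to 83.1%) against 56.1% (44.1% to 67.4%) at 87065059. After betamethasone the same positions stood at 89.5% and 90.8%. So the strands of this CpG were close after betamethasone and further apart after saline, with intervals that just overlap. With reads of both positions summed, the level was 67.9% of 165 reads and 90.1% of 151, a difference of 22.2 points (adjusted Fisher's exact p = 0.00209 with strands merged).

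At the start of the same region the treatments lay closer. At 87064889, 72.5% of 102 reads and 78.0% of 91 were methylated, a difference of 5.47 points with a counting error of 6.19. At 87064921 the levels were 79.4% and 82.2%. At the far end, 87065126 had 76 of 88 methylated reads after saline (86.4%) and 81 of 82 after betamethasone (98.8%), while its neighbour at 87065127 had 84.5% and 88.6%. The mean over all 14 CpGs was 72.1% against 87.2%, but a single CpG can stand far from it: the most deeply read one, at 87064889, gave 5.47 points instead of the mean of 15.1.

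**Figure D1:**
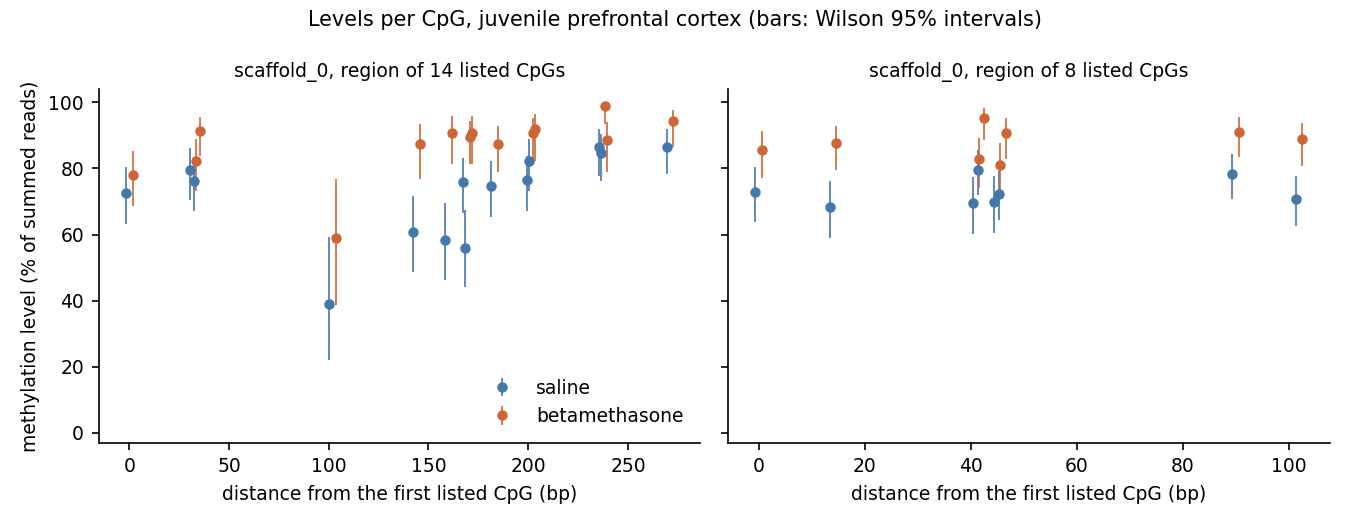
Methylation level (percentage of summed reads) of each listed CpG against its distance in bp from the first listed CpG, in the regions of 14 and 8 CpGs on scaffold_0; points are pooled levels after saline (blue) and betamethasone (orange), drawn slightly apart, and bars are Wilson 95% intervals. All 14 and all 8 betamethasone levels lie above the saline levels, and the widest gaps are the 3 CpGs with saline levels from 56.1% to 60.6%.

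A further gain lay on the same scaffold at 3684576 to 3684678, a stretch of 103 bp with 8 listed CpGs, all higher after betamethasone. Reads numbered 105 to 140 per CpG after saline and 85 to 97 after betamethasone. Saline levels ran from 68.2% to 79.5% and betamethasone levels from 81.1% to 95.3%, so the ranges did not overlap. The largest difference was at 3684590, with 73 of 107 methylated reads (68.2%) and 85 of 97 (87.6%), 19.4 points (8.04 to 30.1). The smallest was at 3684621, with 74 of 106 (69.8%) and 77 of 95 (81.1%), 11.2 points. Neighbouring positions in it pointed the same way. At 3684617 and 3684618 the differences were 13.5 and 15.7 points, and at 3684621 and 3684622 they were 11.2 and 18.3 points. Of the 8 CpGs, 7 had an unadjusted Fisher's exact p under 0.05, and the lowest adjusted p was 0.243.

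Methylation was lower after betamethasone in another stretch of scaffold_0, at 9497540 to 9497625, where positions read at different depths went opposite ways. Its 6 CpGs with 95 or more reads in each treatment had 35.6% to 59.8% after saline and 19.8% to 46.2% after betamethasone, with differences from -13.6 to -21.5 points and a mean of -17.97. At 9497572, 56 of 111 reads (50.5%) and 31 of 107 (29.0%) were methylated, a difference of -21.5 points (-33.5 to -8.49). At 9497625 the counts were 66 of 115 (57.4%) and 41 of 114 (36.0%), a difference of -21.4 points (-33.4 to -8.51). For each of these 2 CpGs the adjusted Fisher's exact p was 0.243.

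The 2 thinly read CpGs of that stretch, with 16 reads after saline and 28 after betamethasone, were higher after betamethasone. At 9497540, 0 of 16 reads were methylated after saline, which allows a level of up to 18.8% by a floor of 3 counts (19.4% by the upper Wilson limit), against 9 of 28 (32.1%). At 9497547 it was 1 of 16 (6.25%) and 6 of 28 (21.4%). The position next to it, 9497546, had 37 of 104 (35.6%) and 19 of 96 (19.8%). The mean over all 8 CpGs was therefore only -7.56 points, against -17.97 over those with at least 20 reads in each treatment.

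Levels were also lower after betamethasone at 5589377 to 5589428, where 4 of 5 listed CpGs had only 22 reads after saline. The fifth, 5589427, had 23 of 52 methylated reads (44.2%) and 12 of 60 (20%), a difference of -24.2 points (-39.95 to -6.95, adjusted Fisher's exact p = 0.653). The position next to it, 5589428, had 63.6% of 22 reads and 35.1% of 37, a difference of -28.5 points. The fifth region of the scaffold, at 3665236 to 3665282, was mixed. Its CpGs at 3665236 and 3665268 were lower after betamethasone by 15.9 and 25.7 points (78.4% and 75.7% after saline, 62.5% and 50% after betamethasone), while 3665282 was at 63.9% and 66.7%.

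**Figure D2:**
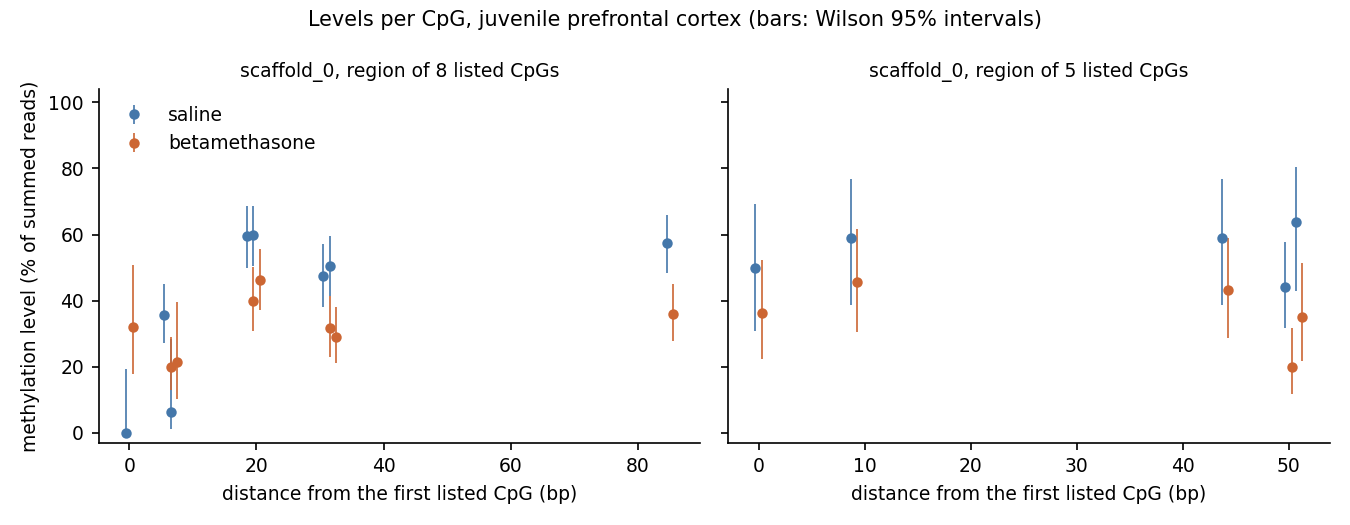
Methylation level (percentage of summed reads) of each listed CpG against its distance in bp from the first listed CpG, in the mixed region of 8 CpGs and the region of 5 CpGs on scaffold_0; points are pooled levels after saline (blue) and betamethasone (orange), drawn slightly apart, and bars are Wilson 95% intervals. In the region of 8 CpGs, 6 are lower after betamethasone and the 2 with 16 saline reads are higher; all 5 of the other region are lower.

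Among the 10 scaffolds with most listed CpGs, scaffold_0 had the largest median size of the difference. Its 38 CpGs had a median difference of 15.5 points in size and a median coverage of 98.5 reads after saline and 85.5 after betamethasone. Larger single differences stood elsewhere, such as 41.4 points at 6965760 on scaffold_53, with 21 reads after saline and 10 after betamethasone. On all other scaffolds together the median size was 3.38 points over 1967 CpGs. Medians on scaffold_1 (46.3 points, 8 CpGs at thin coverage), scaffold_61 (22.4, 2 CpGs) and scaffold_10 (17.9, 1 CpG) were larger than on scaffold_0. An unadjusted Fisher's exact p under 0.05 stood at 23 of the 38 CpGs (60.5%), against 71 of the 1967 others (3.61%). The 38 CpGs come from 5 regions and share reads and animals, and the scaffold was singled out after its values were seen, so no test of this contrast is given.

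**Figure D3:**
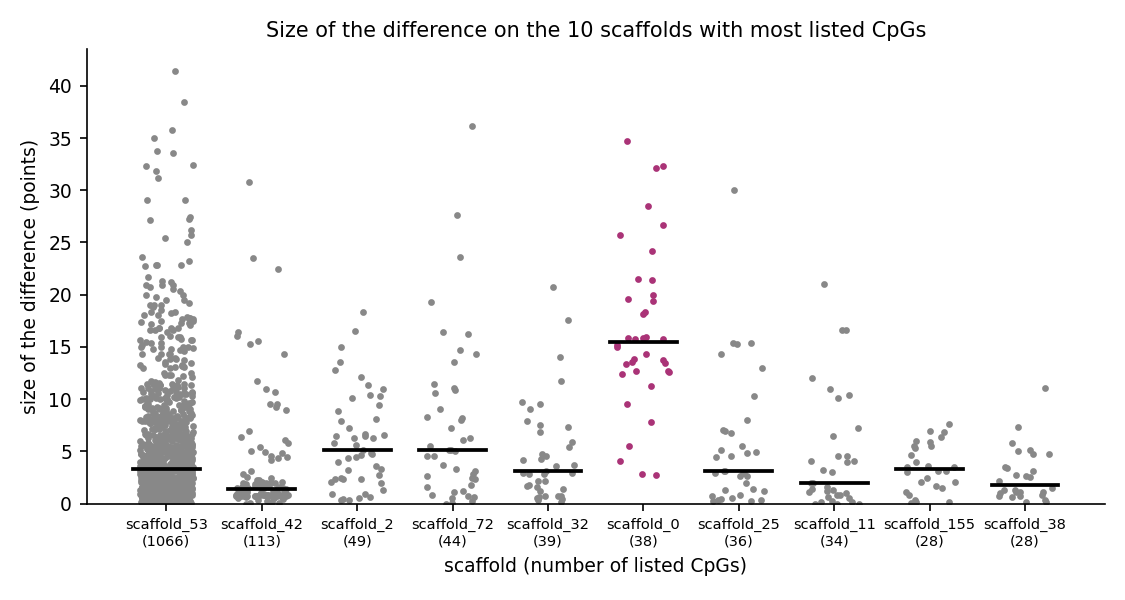
Size of the difference between treatments (points) of each listed CpG on the 10 scaffolds with most listed CpGs, with the number of CpGs in brackets; each point is a CpG, spread sideways for legibility, and black lines are medians. The median is 15.5 points on scaffold_0 and between 1.42 and 5.17 points on the other 9.

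Among the other scaffolds, the CpGs with the smallest Fisher p lay on scaffold_53, which holds 1066 of the 2005 listed CpGs (53.2%). The lowest was a loss at 6816823. There, 25 of 145 reads (17.2%) were methylated after saline and 7 of 167 (4.19%) after betamethasone, a difference of -13.0 points (-20.3 to -6.30, adjusted Fisher's exact p = 0.0999). Its neighbour at 6816824 had 5.36% of 112 reads and 3.30% of 91. At 6811349, 51 of 82 (62.2%) and 18 of 58 (31.0%) were methylated, a difference of -31.2 points (-45.4 to -14.4, adjusted Fisher's exact p = 0.129). The position next to it, 6811348, read 46.4% of 112 and 46.6% of 103. The loss was thus not seen at this neighbour, whose difference had a wide interval (-12.9 to 13.3 points). In the region of both positions, 6811289 to 6811420, 8 of 9 listed CpGs were lower after betamethasone, with a mean of -9.84 points.

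A gain on the same scaffold showed the same contrast between neighbours. At 6927516 the levels were 65.4% of 78 reads and 90.8% of 65 (25.4 points, 11.9 to 37.5, adjusted Fisher's exact p = 0.129), and at 6927517 they were 71.5% of 123 and 71.6% of 88. Further losses on scaffold_53 were 43.6% of 94 and 23.8% of 84 reads at 6681742, 21.0% of 81 and 6.25% of 112 at 6687538, and 97.9% of 47 and 80.4% of 51 at 6973892. On scaffold_42, 6052734 had 98 of 110 methylated reads (89.1%) and 76 of 103 (73.8%), a difference of -15.3 points. None of these 4 passed the adjusted Fisher's exact test (p from 0.490 to 0.653).

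A difference of at least 20 points stood at 84 CpGs (4.19%), 46 of them higher (2.29%) and 38 lower (1.9%). Of the 84, 36 were on scaffold_53 (26 higher, 10 lower), 9 on scaffold_0 and 7 on scaffold_1, and 21 scaffolds held at least 1. The extremes of the whole table were on scaffold_1, whose 8 listed CpGs form 2 regions and were looked at after their values were seen. At 10198632 to 10198664, 4 CpGs with 18 reads after saline and 20 after betamethasone were all higher, with means of 27.8% and 65%. The highest difference of the table stood there, at 10198664, with 4 of 18 methylated reads and 14 of 20 (47.8 points, 16.0 to 68.1). At 65104682 to 65104720, 4 CpGs with 16 and 11 reads were all lower, with means of 71.9% and 31.8%. The lowest difference of the table stood at 65104691 and 65104720 alike, with 14 of 16 methylated reads and 4 of 11 (-51.1 points, -74.2 to -14.4). An unadjusted Fisher's exact p under 0.05 stood at 5 of the 8 CpGs (62.5%), and none passed after adjustment.

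Thin coverage held most of the 84: 48 of them had under 20 reads in a treatment, although only 288 of the 2005 CpGs did. The share with at least 20 points was 16.7% of the 288 CpGs whose less covered treatment had 10 to 19 reads. It was 6.40% at 20 to 29 reads, 4.18% at 30 to 49, 1.05% at 50 to 99 and 0.450% of the 444 CpGs with 100 or more. The share with an unadjusted Fisher's exact p under 0.05 did not fall in the same way, at 3.47%, 2.46%, 5.14%, 6.19% and 3.60%. With at least 50 reads in each treatment, 10 CpGs differed by 20 points or more, 4 higher and 6 lower, and 6 of the 10 were on scaffold_0. The other 4 were 6811349 and 6927516 on scaffold_53, described above, 6952957 on scaffold_53 (48.1% of 52 and 27.1% of 59) and 3970180 on scaffold_72 (85.5% and 61.8% of 55 reads each).

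**Figure D4:**
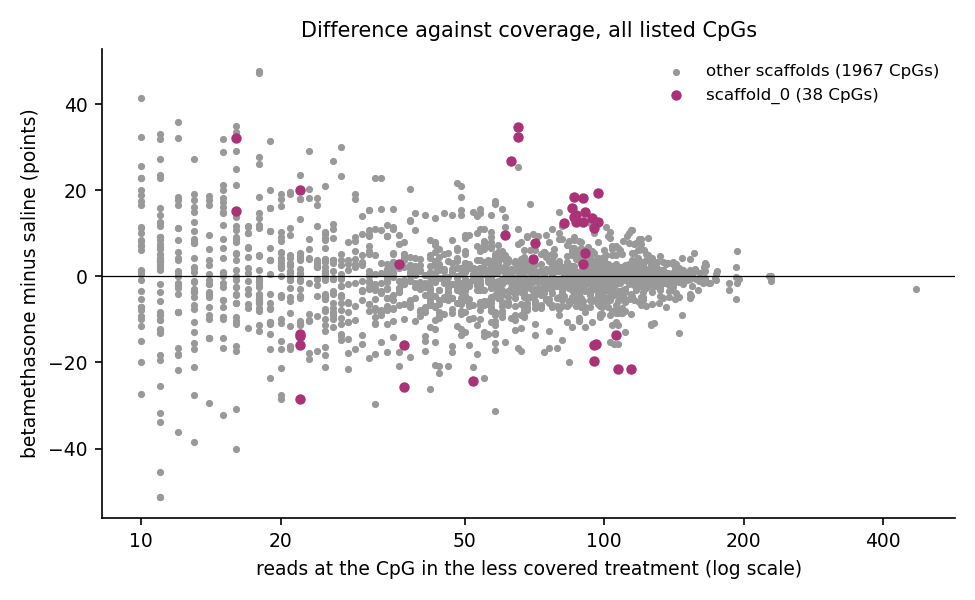
Difference between treatments (betamethasone minus saline, points) of each of the 2005 listed CpGs against the reads in its less covered treatment (log scale), with the 38 CpGs of scaffold_0 in purple. Differences narrow as coverage grows, and most of those at or beyond 20 points have under 20 reads, whereas 6 of the 10 with at least 50 reads are on scaffold_0.

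Most listed CpGs barely differed. Over the table, 948 were higher and 1048 lower after betamethasone and 9 were equal. The quartiles of the size of the difference were 1.39 and 7.86 points around a median of 3.49, and 82.1% of CpGs differed by at most 10 points. At 1081 CpGs (53.9%) the difference was smaller than its own counting error. Levels were extreme at many positions: 58 CpGs were fully methylated after saline and 61 after betamethasone, while 124 and 130 had no methylated read. The 655 CpGs with a level between 20% and 80%, averaged over treatments, held 76 of the 84 differences of at least 20 points. The 875 above 80% held 6 and the 475 below 20% held 2. Median sizes in these classes were 7.22, 3.30 and 1.37 points, beside median counting errors of 9.03, 4.71 and 1.73.

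**Figure D5:**
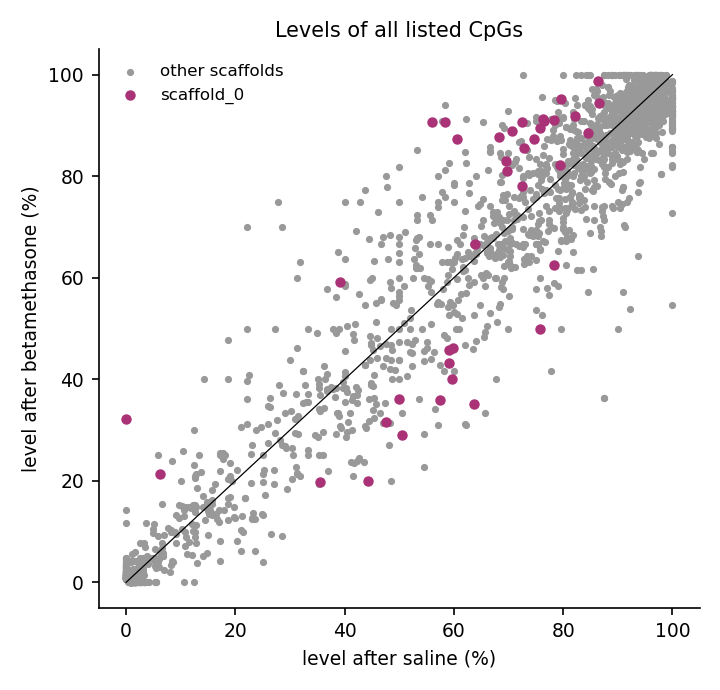
Methylation level after betamethasone (%) against the level after saline (%) for the 2005 listed CpGs, with scaffold_0 in purple and the line of equal levels in black. Points crowd near full methylation (875 CpGs above 80%) and near 0 (475 below 20%), and spread widest between.

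The authors' deposited table has 2 p-values per CpG and an FDR that follows the second, never above 0.0499. Neighbours often carry the very same second p-value. Of 1728 adjacent pairs less than 1000 bp apart, 909 (52.6%) were identical in it, and 2 in the first p-value. The first p-value ranked CpGs much as Fisher's exact p did (Spearman's rho 0.810 over 2005 CpGs, which share reads and animals), and the second did not (rho -0.02). In the authors' deposited table, 115 CpGs (5.74%) had a first p-value under 0.05. Runs of neighbours with 1 second p-value numbered 429 and covered 1338 CpGs. In 270 of these runs some CpGs were higher and others lower after betamethasone, and in 370 no first p-value was under 0.05.

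A smaller second p-value did not go with a larger difference. The 502 CpGs with the smallest second p-values in the authors' deposited table, 437 of them on scaffold_53, had a median size of 3.18 points, and the 501 with the largest had 4 points. An unadjusted Fisher's exact p under 0.05 stood at 20 of the former and 28 of the latter. Median coverage also differed, with 73 reads after saline and 66 after betamethasone in the former, and 62 and 57 in the latter. The 15 CpGs whose FDR was deposited as 0 in the authors' deposited table all lay on scaffold_3, between 3415494 and 3482778. Their median size was 3.63 points, the largest was 10 points, 8 were higher and 7 lower, and 1 had a Fisher's exact p under 0.05. On scaffold_72 the 6 CpGs at 4939302 to 4939415 had FDRs from 3.24e-10 to 1.06e-09, in the authors' deposited table, and no first p-value under 0.0786. They averaged 82.9% after saline and 76.8% after betamethasone.

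Regions in which every CpG had the same direction were few. Of 187 regions with at least 3 listed CpGs, 17 had a single direction, 5 higher and 12 lower, and 170 were mixed. Those read at or above the table's median coverage in each treatment numbered 7, with 4 gains and 3 losses. Beside the 2 gains on scaffold_0, the gains were small. On scaffold_104 at 2632168 to 2632266, 8 CpGs averaged 63.5% and 70.4%, a difference of 6.92 points (3.84 when reads were summed), and its 3 CpGs with only 22 saline reads differed by 17.9, 5.45 and 18.0 points. Its deeper CpGs, such as 2632253 (72.2% of 126 and 76.1% of 134), differed by 1.08 to 3.90 points. On scaffold_53 at 6808422 to 6808598, 4 CpGs averaged 82.9% and 88.6%. This difference of 5.66 points became -0.32 with a joining distance of 10000 bp.

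The well-read losses were led by scaffold_2 at 36381253 to 36381304, whose 4 CpGs had a mean of 74.6% in saline offspring against 64.5% (-10.1 points). They ranged from -16.6 points at 36381253 (50 of 76 reads and 32 of 65) to -5.76 at its most deeply read CpG, 36381304 (79.4% of 107 and 73.7% of 114). On scaffold_53, the 3 CpGs at 6697360 to 6697469 averaged 97.4% and 92.2%, or -5.25 points, and -1.08 with that joining distance. The 4 CpGs on scaffold_70 at 3015998 to 3016041 had 116 to 123 reads and hardly differed (24.7% and 23.6%), with each CpG lower by at most 1.97 points. None of these regions outside scaffold_0 held a CpG with an unadjusted Fisher's exact p under 0.05.

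The scaffolds with most listed CpGs after scaffold_53 had their own levels. On scaffold_42, 113 CpGs averaged 18.5% in either treatment, and 75 of them were below 5% in both. In its region at 6111381 to 6112585, 31 of 34 CpGs were below 5% in both treatments, with differences of at most 2.48 points, and 17 were higher and 17 lower. Scaffold_2 had 49 CpGs, 35 lower and 14 higher, averaging 73.7% and 70.5%. On scaffold_32, 23 of 39 were lower (55.5% and 52.7%), and on scaffold_25, 25 of 36 (75.2% and 74.4%). The 28 CpGs of scaffold_155 formed a single region at 1146684 to 1147889, highly methylated at 91.1% and 90.2%. Scaffold_72 (44 CpGs), scaffold_11 (34) and scaffold_38 (28) also stood high, at 78.8% and 77.1%, 82.97% and 82.4%, and 92.9% and 93.5%.

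A few smaller groups outside these scaffolds were described after their values were seen. On scaffold_15 at 32550138 to 32550413, 11 of 14 CpGs were higher, and the mean was 74.2% after saline and 83.1% after betamethasone. Coverage was thin at some of them, such as 32550413 with 19 reads after saline and 11 after betamethasone. The neighbours 32550353 and 32550354 went opposite ways (-13.4 and 9.26 points), as did 32550359 and 32550360. The other neighbouring pairs of this group had a single direction. On scaffold_687, 26 CpGs within 383 bp averaged 35.2% and 38.1%, with 17 higher and 9 lower, at 51 to 101 reads after saline. There 42402 had 19 of 86 methylated reads (22.1%) and 23 of 58 (39.7%), and 42697 had 55.9% of 68 and 43.9% of 66. On scaffold_6, 43172339 and 43172340 had 31.8% of 22 and 63.2% of 19 reads, and 31.2% of 16 and 60% of 15. This was a neighbouring pair with the same direction at thin coverage.

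Neighbouring positions 1 bp apart, taken as the strands of a CpG, formed 283 pairs. Differences had the same direction in 146, opposite directions in 135, and a member with no difference in 2. Both members differed by at least 10 points in 14 pairs, of which 8 pointed the same way and 6 the opposite way. Scaffold_0 held 7 of the 14, and 6 of those pointed the same way. The exception there was 9497546 and 9497547. Of the 7 pairs on other scaffolds, 2 pointed the same way and 5 the opposite way. Of the 14, 5 had at least 50 reads at both members in both treatments. All 5 lay in 3 regions of scaffold_0 and each had a single direction. A pair on scaffold_53 with a single direction, 6681603 and 6681604 (-15.7 and -20.6 points), narrowly missed this read limit. It fell short only at 6681604, with 43 reads after betamethasone.

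The title of the series speaks of signatures conserved between newborn and juvenile animals, which are different animals here. No position was listed at both ages, out of 2005 in juveniles and 4622 in newborns, also when positions up to 1 bp apart were counted. Since CpGs that were not listed are not analysed here, this does not show that the ages differed, and the overlap was not tested. At a distance under 1000 bp, 31 juvenile CpGs (1.55%) lay near 19 newborn CpGs (0.411%), in 2 places. On scaffold_42, 26 juvenile CpGs at 5825119 to 5826465 averaged 6.23% (saline) and 6.46% (betamethasone), and 5 newborn CpGs at 5825830 to 5825861 averaged 0.251% and 0.676%. On scaffold_67, 5 juvenile CpGs at 9124061 to 9124086 averaged 32.5% and 28.8%, and 14 newborn CpGs at 9123772 to 9123900 averaged 36.6% and 36.5%. The lists shared 58 scaffolds, of 75 in juveniles and 149 in newborns. Scaffold_53, with 1066 juvenile CpGs, had 132 newborn ones, and scaffold_4, with 1379 newborn CpGs, had 5 juvenile ones. Scaffold_0 had 38 and 51.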

How the data were processed

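RRBS libraries came from 100 ng of DNA per animal (Ovation system, EpiTect bisulfite conversion), per the labels' protocols. The submitters' processing notes name SAMtools 1.9, Bowtie2 2.3.4.3, Trim Galore and Bismark 0.16.0. For the caller, its filters and the build, nothing is given in the sources used here. Per the file headers, the authors deposited read coverage and counts of methylated reads per treatment, methylated fractions, 2 p-values with an FDR, and a difference in percentage points, which matched that recomputed from the counts. All listed CpGs were kept.

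Levels, differences and their counting errors (binomial SE) were computed from the counts, intervals of a level by Wilson's method and of a difference by Newcombe's. Fisher's exact test (two-sided) was adjusted by Benjamini-Hochberg over the 2005 juvenile CpGs and checked on simulated reads. Those reads were drawn independently for each CpG, without variation between animals and without the authors' listing. The check therefore does not cover either. No values per animal were used. The rule for named CpGs took those past the test and the 10 with the smallest Fisher p in each direction with at least 20 reads in each treatment. Named regions had at least 3 CpGs of a single direction and median coverage at or above the table's. The 10 scaffolds with most CpGs and positions at both ages were also named. The table, the rules and the alternatives were chosen with earlier results of these data known. Gene lists were not counted, because RefSeq gene names were at hand only for mCavPor4.1, and the build of the files is not stated. With no shared position, the test of treatment by age was not run. Software was SciPy 1.17.1, pandas 2.3.3, Matplotlib 3.10.9 and NumPy 2.4.6 under Python 3.11.15.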

Additional observations from a re-analysis of the deposited data

How the results depend on the processing

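Both CpGs past the adjusted Fisher's exact test, and no lower CpG, were called under all 6 alternatives (20 or 30 reads in each treatment, FDR under 0.01, likelihood ratio test, strands merged, scaffold_53 left out). The read limits, the FDR limit and leaving out scaffold_53 could not have lost the called CpGs. Each of these settings keeps both, and a shorter list can only lower their adjusted p. Only the likelihood ratio test and merged strands could have lost them, and neither is an independent check. The likelihood ratio test used the same pooled counts and gave lower adjusted p (0.00699 at 87065059 and 0.0129 at 87065049). Merging strands left the counts at 87065049 unchanged (65 reads in each treatment), so of the called CpGs it changed the reads of 87065059 only. Counts of differences of at least 20 points moved with coverage and with the size asked for: 46 higher and 38 lower became 16 and 20 with at least 20 reads in each treatment, and 9 and 14 with at least 30. Without scaffold_53, 20 were higher and 28 lower, so that the balance turned to lower, as it did with either read limit. At a size of 10 points, 177 were higher and 187 lower. The mean difference, -0.24 points with a counting error of 0.33, was -0.58 without scaffold_53, -0.54 and -0.52 with at least 20 and 30 reads, -0.46 summed over reads and -0.31 with strands merged; the cause was not tested. The 277 regions became 488, 170 and 180 when joined under 100 bp, under 10000 bp, or without scaffold_53. Positions at both ages rose from 0 to 31 when those less than 1000 bp apart counted. Of 10 regions followed, that on scaffold_53 at 6808422 turned from 5.66 to -0.32 points when joined under 10000 bp, since 242 CpGs then formed the region. No paired analysis was possible because the tables hold 1 pooled value per treatment, and for the same reason no animal could be left out. With 10 to 19 reads in a treatment the median counting error was 13.4 points, so differences of that size were not detectable there. Even the extremes of the table, which had such coverage, did not pass. On scaffold_1, -51.1 points at 65104720 and 47.8 points at 10198664 had an adjusted Fisher's exact p of 0.653 and 0.565.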
